A study of Homo sapiens with 2 samples.

Results

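The miR-34 family is made from 3 human hairpin precursors, hsa-mir-34a on chromosome 1 and hsa-mir-34b and hsa-mir-34c side by side on chromosome 11. They were taken by name from 1038 precursors with any count in small RNA bound to Argonaute, and all 3 were present. The small RNA came from HEK293 T-Rex cells expressing FLAG-tagged AGO3 or FLAG-tagged AGO2; HEK293 is a line from human embryonic kidney. The tagged protein was pulled down with magnetic beads and its RNA sequenced, with 1 AGO3 library and 1 AGO2 library. No untagged control or treated cells were analysed here. With single libraries, a difference between AGO3 and AGO2 has no replicate check, and no test between them was made. The 3′ adapter also differs between the libraries, so every such difference is one of adapter and protein together.

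MicroRNAs guide Argonaute proteins to target RNAs, mainly through the seed near their 5′ end. The miRNAs of the miR-34 family repress cell cycle and survival genes such as CDK6, MET and BCL2, and the deacetylase SIRT1. The miR-449 precursors, which lie in an intron of CDC20B, give miRNAs with the same core letters, and the miR-34 and miR-449 miRNAs act together in cells with motile cilia.

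The mature sequences are shown first because the family is defined by them, with the seed (bases 2 to 8) in capitals. They come from RefSeq (table build GRCh38.p14), which matched all 6 hairpins of both groups and 5 mature miRNAs of the mir-34 hairpins. The first set holds miRNAs of the 5′ arm, the side of the hairpin that carries the family seed.
miR-34a-5p: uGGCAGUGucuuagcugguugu
miR-34b-5p: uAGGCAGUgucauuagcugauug
miR-449a: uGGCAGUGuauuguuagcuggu
miR-449b-5p: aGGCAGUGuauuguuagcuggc
miR-449c-5p: uAGGCAGUguauugcuagcggcugu
The letters GGCAGUG begin at base 2 of miR-34a-5p, miR-449a and miR-449b-5p, and make up their seed. The sequence of miR-34c-5p, a further miRNA of the family, was not used here, so no statement on sequences covers it. In miR-34b-5p and miR-449c-5p the same letters begin at base 3, so that their seed is AGGCAGU, which they share with miR-2682-5p, a miRNA whose precursor had a count in neither library. The longest run shared by miR-34a-5p and miR-34b-5p was 9 bases, and 19 bases were identical when the pair was aligned.

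The 3′ arms are shown because their seeds differ between the 3 precursors.
miR-34a-3p: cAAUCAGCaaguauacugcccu
miR-34b-3p: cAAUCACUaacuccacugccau
miR-34c-3p: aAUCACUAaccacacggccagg
The neighbours miR-34b-3p and miR-34c-3p shared a run of 10 bases and 17 identical bases when aligned, but begin 1 base apart, which gives them the seeds AAUCACU and AUCACUA. The pair miR-34a-3p and miR-34b-3p had 16 identical bases, nearly as many, and a longest shared run of 6 bases. Each of these 3′ seeds was held by 1 mature miRNA in the table. Among the 5 mir-34 sequences compared, no pair from different hairpins shared a run longer than 10 bases, which is shorter than a mature miRNA.

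Nearly all family counts came from mir-34a. Its precursor had 1203 counts in the AGO3 library and 1780 in the AGO2 library, which placed it at rank 174 of 947 precursors counted in AGO3 and at rank 150 of 966 in AGO2. The mir-34b precursor had 2 counts in AGO3 and 11 in AGO2. The mir-34c precursor had 7 counts in AGO3 and 3 in AGO2. These counts are raw reads per precursor, they cover both arms of a hairpin together, and mir-34b and mir-34c stand at the edge of what the libraries can show.

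Scaled to the 3055417 precursor counts of AGO3 and the 3485257 of AGO2, mir-34a reached 394 counts per 1000000 precursor counts (CPM; exact Clopper-Pearson 95% interval 372 to 417) in AGO3 and 511 CPM (487 to 535) in AGO2. For mir-34b the values were 0.655 CPM (0.0793 to 2.36) in AGO3 and 3.16 CPM (1.58 to 5.65) in AGO2. For mir-34c they were 2.29 CPM (0.921 to 4.72) in AGO3 and 0.861 CPM (0.178 to 2.52) in AGO2. Reads are not independent molecules, so all intervals hold counting error alone. Where no read is seen, as many as 3 counts remain possible, which is 0.982 CPM in AGO3 and 0.861 CPM in AGO2, and mir-34b in AGO3 and mir-34c in AGO2 lay at or under that level. The intervals of mir-34b and of mir-34c each overlap between the libraries. Those of mir-34a do not, but intervals narrow as counts rise, so this depends on depth. How many other precursors separate in this way was not counted, so the separation cannot be read as a trait of mir-34a.

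**Figure D1:**
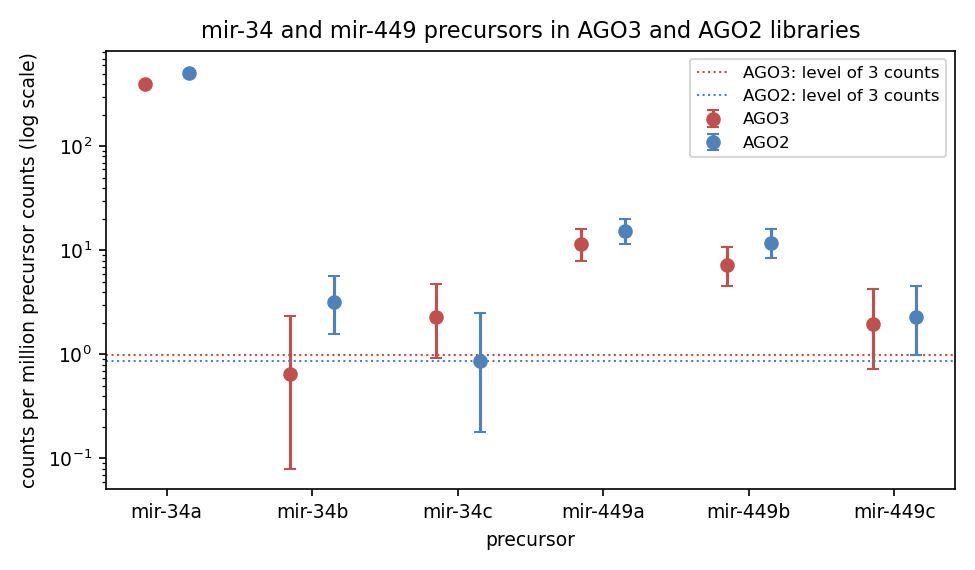
Level of each mir-34 and mir-449 precursor in the AGO3 (red) and AGO2 (blue) library, in CPM on a log scale. Points are single libraries, bars are exact 95% intervals of counting error, and dotted lines mark the level of 3 counts; mir-34a at 394 and 511 CPM stands far above the other 5 precursors.

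In each library mir-34a alone made up almost the whole family. It held 99.3% (98.6 to 99.7) of the 1212 family counts in AGO3 and 99.2% (98.7 to 99.6) of the 1794 in AGO2. The share of mir-34b was 0.165% (0.02 to 0.595) in AGO3 and 0.613% (0.306 to 1.09) in AGO2, and that of mir-34c was 0.578% (0.233 to 1.19) in AGO3 and 0.167% (0.0345 to 0.488) in AGO2. Together the 3 precursors took 0.0397% of all AGO3 and 0.0515% of all AGO2 precursor counts.

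Next, AGO3 was set against AGO2. As a share of precursor counts mir-34a was lower in AGO3, at 0.771 of its AGO2 level, a log2 ratio of −0.38 (−0.48 to −0.27). That is under the 2-fold difference used to call a precursor apart. As a background, 411 precursors had a summed count of 100 or more, and 15.8% of them were higher in AGO3 by 2-fold or more and 8.76% lower, 24.6% in either direction. Of the family, 1 member passed this minimum and 0 of it were called, while mir-34b and mir-34c were under the minimum. The middle of all 411 precursors lay at 0.08, with quartiles of −0.52 and 0.70, so mir-34a differed from the median by −0.46 and lay within the quartiles. A log2 ratio at least as far from 0 as that of mir-34a was found in 66.9% of the precursors.

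The size of the mir-34a difference depended on the scale. The AGO3 library had 65.5% and the AGO2 library 52.2% of its reads counted on precursors. Relative to all reads of a library mir-34a had 258 reads per 1000000 (RPM) in AGO3 and 267 RPM in AGO2, a log2 ratio of −0.05 (−0.16 to 0.06), which is within counting error. On that scale the log2 ratio of every precursor rises by 0.33, and the called precursors split into 107 higher and 16 lower in AGO3, against 65 higher and 36 lower by shares of precursor counts. The distance of mir-34a from the median of the precursors does not change with the scale.

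The neighbours mir-34b and mir-34c had ratios of opposite sign from very few counts. The log2 ratio of mir-34b was −2.03 (−5.48 to −0.07), lower in AGO3, and that of mir-34c was 1.27 (−0.72 to 4.0), with an interval that holds 0. Relative to all reads the mir-34b interval also held 0, at −1.71 (−5.16 to 0.25). Of the 627 precursors under the minimum, 90 had 10 to 20 counts over both libraries, as these neighbours did. The summed family, carried by mir-34a, was at −0.38 (−0.48 to −0.27).

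**Figure D2:**
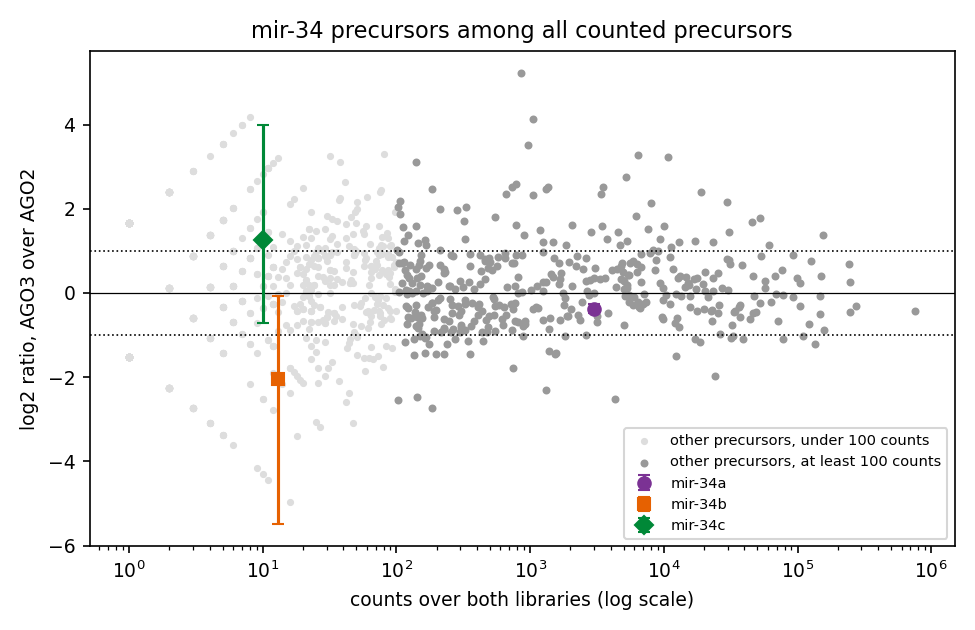
Log2 ratio of AGO3 over AGO2 for every counted precursor against its counts over both libraries (log scale), with the 3 mir-34 precursors in colour and their exact 95% intervals of counting error. Dotted lines mark 2-fold; mir-34a lies within the body of the precursors at −0.38, and mir-34b and mir-34c, with 13 and 10 counts, have wide bars.

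Ratios between members do not depend on the scaling. There were 3.5 counts of mir-34c per count of mir-34b in AGO3 and 0.273 in AGO2, a ratio of ratios of 11.1 (1.27 to 168). Over the 3 pairs of members, with intervals widened to 98.3% for their number, this range becomes 0.889 to 309 and includes 1. The ratio of mir-34a to mir-34b was 602 in AGO3 and 162 in AGO2, and that of mir-34a to mir-34c was 172 in AGO3 and 593 in AGO2; both ranges included 1. A different balance of the members in the libraries was thus not detectable at this depth.

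The precursors of the miR-449 group, fixed as the relatives by seed, were also scarce. For mir-449a, the most abundant of them, there were 35 counts in AGO3 and 54 in AGO2, a log2 ratio of −0.43 (−1.09 to 0.20). For mir-449b there were 22 counts in AGO3 and 41 in AGO2, and for mir-449c 6 in AGO3 and 8 in AGO2. Every one of the 3 was under the 100-count minimum, and each interval held 0. Their sum of 63 counts in AGO3 and 103 in AGO2 gave −0.52 (−1.0 to −0.05), far fewer counts than the 1203 and 1780 of mir-34a. Relative to all reads the ratio of this sum also rises by 0.33, and its interval then holds 0.

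By level and ratio together, the precursors nearest to mir-34a over the 2 libraries were let-7i, mir-577 and mir-193a. Their distances on the log2(CPM + 0.5) scale were 0.15, 0.23 and 0.26. The precursor let-7i had 1187 counts in AGO3 and 1978 in AGO2 (log2 ratio −0.55), mir-577 had 1125 in AGO3 and 2055 in AGO2 (−0.68), and mir-193a had 1399 in AGO3 and 1609 in AGO2 (−0.01). With a pair of libraries such likeness says only that the levels are close.

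The deposited stacks, runs of overlapping reads along the genome in build hg19, show where on each hairpin the reads fell. They pool libraries that the list does not name, so they cannot separate AGO3 from AGO2. Their 68649476 reads are 6.05 times the reads of both libraries. The family was covered by 5 stacks on the strand of the precursors. For mir-34a there was 1 stack with 119698 reads at chr1:9211749-9211835 on the minus strand, in the annotated exon of the non-coding MIR34A gene, which lies within the host transcript MIR34AHG in RefSeq. For mir-34b there were 237 reads at chr11:111383675-111383699 and 93 reads at chr11:111383712-111383736. For mir-34c there were 319 reads at chr11:111384156-111384199 and 60 reads at chr11:111384209-111384232. These 4 stacks lie on the plus strand in exons of MIR34B and MIR34C, which RefSeq places within the transcript MIR34BHG, and the mir-34b stacks lie opposite an annotated promoter region of BTG4. A single read lay antisense to mir-34b, and 0 antisense to the other members.

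As in the tables, mir-34a held nearly all family reads in the pooled stacks. Of 120407 family stack reads mir-34a held 99.4% (99.4 to 99.5), mir-34c 0.315% (0.284 to 0.348) and mir-34b 0.274% (0.245 to 0.305). With 379 reads against 330, the pooled reads of mir-34c were 1.15 times those of mir-34b. In the tables mir-34c was the higher in AGO3, with 7 counts against 2, and the lower in AGO2, with 3 against 11. The summed counts of 10 for mir-34c and 13 for mir-34b are too few to set an order. The stack share of mir-34b lay within its AGO3 interval and under its AGO2 interval, and that of mir-34c lay within its intervals of both libraries.

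Relative to the tables, all 3 members were deep in the stacks. There were 40.1 stack reads per table count for mir-34a, 37.9 for mir-34c and 25.4 for mir-34b. Over 326 precursors of 100 or more counts and with stacks of their own the median was 6.32, with quartiles of 2.17 and 16.4, and 8.28% were at or above mir-34a. Over 229 precursors with 10 to 99 counts the median was 5.22, and 7.86% were at or above mir-34c and 12.2% at or above mir-34b. Thus mir-34a ranked 77 by stack reads and 143 by counts among the same 326. Neither background was limited to precursors whose reads match 1 place in the genome. Some of the 326 held very few stack reads for many counts, such as 2 for 32291 or 198 for 69449. Such precursors lower the median and the share at or above mir-34a. The mir-449 precursors also lay above both medians, at 54.5 for mir-449c, 26.5 for mir-449a and 15.6 for mir-449b. Which libraries gave the further stack reads, and how reads were matched in each file, is not given in the sources at hand; their part in this difference was not tested.

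**Figure D3:**
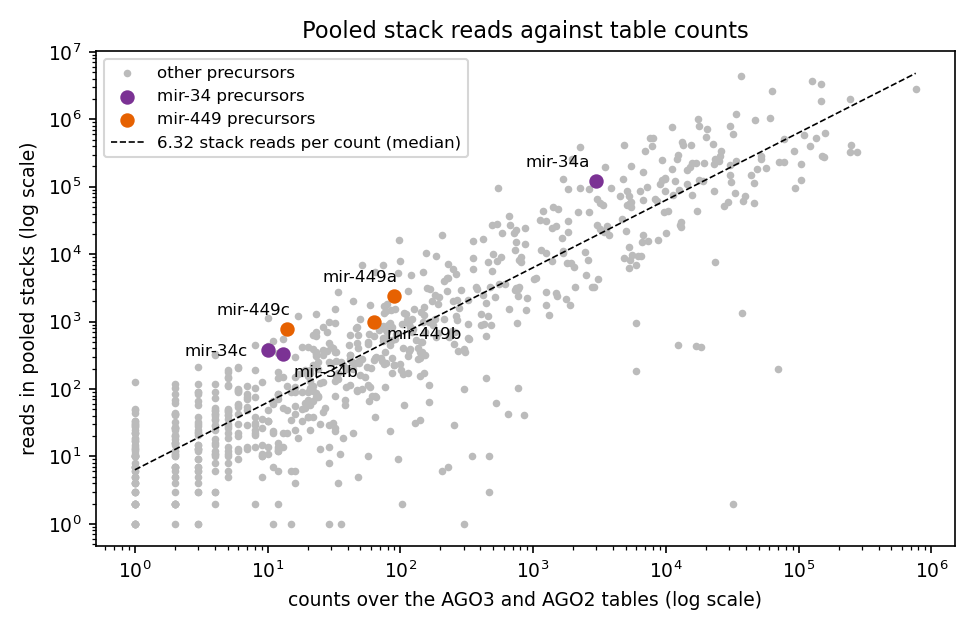
Reads in pooled stacks against counts over the AGO3 and AGO2 tables for each precursor with stacks of its own, both on log scales. The dashed line marks the median of 6.32 stack reads per count; the 3 mir-34 precursors (purple) and the 3 mir-449 precursors (orange) all lie above it, mir-34a at 40.1.

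The hairpins of mir-34a and mir-34b are printed with the mature arms in capitals, since the stacks can be read against them (RefSeq, chromosome 1 minus strand and chromosome 11 plus strand).
MIR34A: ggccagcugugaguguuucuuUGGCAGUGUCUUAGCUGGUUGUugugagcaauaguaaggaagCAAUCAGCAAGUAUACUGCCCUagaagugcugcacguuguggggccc
MIR34B: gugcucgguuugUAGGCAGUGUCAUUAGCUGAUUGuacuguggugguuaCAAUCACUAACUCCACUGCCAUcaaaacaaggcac
In mir-34a 20 bases part the arms, and the arms with the loop span 64 of the 110 bases. Its stack covered 87 bases without a break, longer than that span, so its reads cannot be divided between miR-34a-5p and miR-34a-3p. Among 66 stacks of 1 precursor with 50000 to 250000 reads the median length was 82.5 bases, and 47 were no longer than that of mir-34a. In mir-34b 14 bases part the arms.

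The stacks of mir-34b and mir-34c kept their arms apart, and in both the 5′ side held most reads. The stacks of mir-34b start 37 bases from each other in hg19, which is the distance between the first bases of miR-34b-5p and miR-34b-3p in RefSeq. By that spacing the 5p stack held 71.8% (66.6 to 76.6) and the 3p stack 28.2% (23.4 to 33.4) of its reads. The shorter mir-34c stack starts 534 bases from the deeper mir-34b stack, again the distance of miR-34c-3p from miR-34b-5p in RefSeq, and held 15.8% (12.3 to 19.9) of the mir-34c reads. The other 84.2% (80.1 to 87.7) lay on the 5′ side, a larger share than in mir-34b beyond counting error. That 5′ stack was 44 bases long, against 25 bases in mir-34b. It could not be matched to a mature miRNA, because the sequences used held none for the 5′ arm of mir-34c. The shares thus cover unlike stretches and are no firm difference between the arms. In mir-449b and mir-449c the 5′ side held 92.7% (90.8 to 94.2) and 92.7% (90.6 to 94.4), above both mir-34 neighbours, while mir-449a had 1 unbroken stack of 80 bases with 2359 reads and so no share by arm.

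The 5′ stack of mir-34c differed in shape from the other 3 stacks of this locus. It was 44 bases long, against 24 or 25 bases for those. Such a length was not particular to it, since other precursors with 2 stacks had a longest stack of 43, 44 or 48 bases. How many do was not counted. The place of the 5′ mir-34c stack on the RefSeq hairpin rests on an assumption. The deepest mir-34b stack was taken to start at the first base of miR-34b-5p, 12 bases inside its hairpin. On that basis the 5′ stack of mir-34c began 8 bases before the first base of its hairpin. The spacings of 37 and 534 bases cannot check this, since a common shift of all stacks would leave them unchanged. The profile entropy of the 5′ mir-34c stack, a deposited score for the reads of a stack, was 0.897. It was 0.064, 0.138 and 0.085 for the other 3 stacks of this locus and 1.472 for the long mir-34a stack. The reads of the 3 members carried 0.156 (mir-34a), 0.152 (mir-34b) and 0.15 (mir-34c) edits each, differences from the reference genome, close to the median of 0.155 over the 326 precursors.

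**Figure D4:**
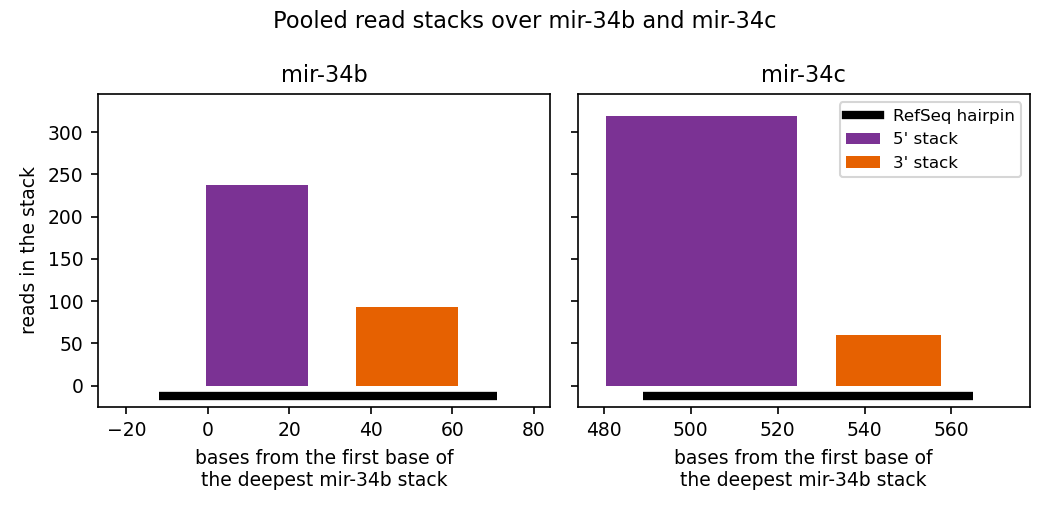
Pooled read stacks over mir-34b and mir-34c, with distance along the plus strand in bases from the first base of the deepest mir-34b stack and bar height as the reads of each whole stack. Bar width is the length of the stack and the black line is the RefSeq hairpin, set by its distance from miR-34b-5p. The first base of miR-34b-5p was assumed to be the start of the deepest mir-34b stack. The 5′ stacks with 237 and 319 reads exceed the 3′ stacks with 93 and 60. On that placement the 5′ stack of mir-34c reaches 8 bases past its hairpin.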

How the data were processed

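For each library the authors deposited raw counts, 1 for every miRNA precursor. Per the file headers, total, mapped and unmapped reads are known, and the counts sum to the mapped reads. Bowtie2 2.1.0 and hg19 are named, without a role, in the submitters' processing notes. Not given in the sources used here are the miRBase release, mismatches, strand, and the treatment of reads matching several precursors and of the random bases that the 5′ adapter adds. Per the labels, the 3′ adapter differs between the libraries, so adapter and protein cannot be told apart. The deposited stack list gives read counts, an entropy score and, in its attributes, other values such as edits; its libraries are pooled.

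From the counts, log2 ratios of AGO3 over AGO2 shares were computed with a pseudocount of 0.5 scaled to library size, and intervals from the exact 95% interval of the AGO3 part. An absent precursor counted as 0. Precursors with at least 100 counts were compared, and called apart at 2-fold. The computation was tested on simulated data. Alternatives were TMM (edgeR 4.0.16), median-of-ratios and total-read scaling, other minimums and pseudocounts. Planned comparisons with other lists of precursors are not reported here. Members and relatives were chosen with earlier results of these data known. Precursors named are the members, mir-449 and the 3 nearest to each member with at least 100 counts; miR-2682-5p was named after its value was seen. Stack positions were compared with RefSeq arms only by distances within each build (tolerance 3 bases). For this the deepest mir-34b stack was set at the first base of miR-34b-5p, and the deepest mir-449b stack at that of miR-449b-5p. Scripts ran in R 4.3.3 and Python 3.11.15 (scipy 1.17.1, numpy 2.4.6, matplotlib 3.10.9, pandas 2.3.3).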

Additional observations from a re-analysis of the deposited data

How the results depend on the processing

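No paired analysis was possible because each protein has 1 library, and for the same reason no replicate could be left out. Of 36 alternative values, 29 stayed within counting error of the reported value or, for the number of precursors apart, within 1.5 times the count reported, and 7 did not. The log2 ratios of mir-34b and mir-34c stayed inside the intervals of their reported values under every scaling and pseudocount tried. These intervals, −5.48 to −0.07 and −0.72 to 4.0, are far wider than the largest scaling shift of 0.33. Staying inside them is therefore no check of these ratios. Relative to all reads, the interval of mir-34b itself came to hold 0, at −1.71 (−5.16 to 0.25). With scaling to all reads mir-34a and the summed family both came to −0.05, since every ratio rises by 0.33. The precursors at least 2-fold apart numbered 184 of 638 (28.8%) with a minimum of 20 counts and 436 of 1038 (42%) with 1 count. With 500 they numbered 64 of 265 (24.2%), against 101 of 411 (24.6%) as reported. The number compared changes with the minimum, so the number apart shifts even where the share hardly does, as with 500 counts. With scaling to all reads the share was 29.9%. Counting only the deepest stack gave 237 reads for mir-34b and 319 for mir-34c. For mir-34a, with 1 stack and 0 antisense reads, the alternative stack counts could not move. Depth limits mir-34b and mir-34c, whose counts allow no firm ratio.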
